A study of Homo sapiens with 4 samples.

Results

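LBR, SYNE2, SUN1 and SUN2 encode proteins of the nuclear envelope that shape the nucleus, and they were taken from the deposited expression table by name. All 4 were found among its 1648 genes. The table compares HL-60 cells, a human leukemia line, after ATRA (all-trans retinoic acid) with ethanol-treated cells. ATRA-treated cells had received 1 µM ATRA for 4 days, control cells an equal volume of the solvent ethanol for 4 days, and both had a change of medium with renewed compound on the way. RNA sequencing of polyadenylated RNA was performed on 2 ATRA-treated and 2 control samples of this single line. Nothing in the labels says whether samples of a group came from separate cultures. The p-values thus concern these 4 samples alone, whose spread may be technical. The table lists genes that passed the authors' test at an adjusted p under 0.01, which were 1645 of 12265 genes tested or 13.4%. The remaining 3 rows stand above that limit. "Rose" and "fell" are used below for genes under the limit.

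Lobulation of the nucleus accompanies granulocyte maturation. LBR, the lamin B receptor, sits in the inner nuclear membrane, where it holds peripheral heterochromatin and B-type lamins and also acts as a sterol reductase. Loss of function of LBR leaves human neutrophils with poorly segmented nuclei, the Pelger-Huët anomaly. SUN1 and SUN2 cross the same membrane and bind, in the space between the membranes, the KASH domains of nesprins, the giant proteins encoded by SYNE1 and SYNE2. Together they form the LINC complex, which couples the lamina inside the nucleus to actin and microtubules outside.

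Upon ATRA induction 3 of the 4 genes rose and 1 fell. LBR, SYNE2 and SUN2 rose 2.78-fold, 5.34-fold and 2.47-fold, while SUN1 was 2.31-fold lower. The share of all tested genes that rose was 8.28%, and 5.13% fell. Since the genes were picked with their direction known, the counts are a description and nothing is read from them. Values are normalised read counts, which are whole reads of a library divided by its size factor. They were recovered for libraries called a and b within each group, as described in the processing.

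LBR, on chromosome 1 (GRCh37, 225589204 to 225616627, minus strand), had 32284 and 27398 normalised reads in the ATRA-treated libraries, against 11950 and 9534 in the control libraries. The lowest ATRA-treated library was 2.29 times the highest control library, so the groups did not overlap. The means were 29841 ± 3455 with ATRA and 10742 ± 1708 in controls (SD, n = 2 each), a log2 fold change of 1.47. LBR had the most reads of the 4 genes, up to 35484 in a library, and its canonical transcript has 3748 bases in 14 exons.

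SYNE2 (chromosome 14, 64228617 to 64693151, plus strand) encodes nesprin-2, which spans the outer nuclear membrane and reaches into the cytoplasm. It had 6811 and 4726 normalised reads with ATRA, against 663 and 1496 in controls. The means of 5769 ± 1474 and 1080 ± 589 (SD, n = 2 each) gave a log2 fold change of 2.42. Its control libraries lay 2.26 times apart, more than those of 95.3% of the 1591 listed genes with reads in all libraries. The groups still did not overlap, with library folds between 3.16 and 10.3. The log2 fold change was 3.12 without control library b and 1.95 without control library a.

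SUN2 (chromosome 22, 39129295 to 39190148, minus strand) anchors nesprins from the inner membrane. It had 11345 and 9860 normalised reads with ATRA, against 4190 and 4385 in controls. Both ATRA-treated libraries were higher, by 2.25-fold to 2.71-fold over the pairs of libraries. Its means were 10603 ± 1050 with ATRA and 4287 ± 138 in controls (SD, n = 2 each), a log2 fold change of 1.31.

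SUN1 (chromosome 7, 856252 to 936072, plus strand) is the related anchor and moved in the other direction. It had 898 and 841 normalised reads with ATRA, against 1900 and 2124 in controls. Every ATRA-treated library was lower than every control library, by 2.12-fold to 2.53-fold. The means were 869 ± 40.5 with ATRA and 2012 ± 158 in controls (SD, n = 2 each), a log2 fold change of -1.21.

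**Figure D1:**
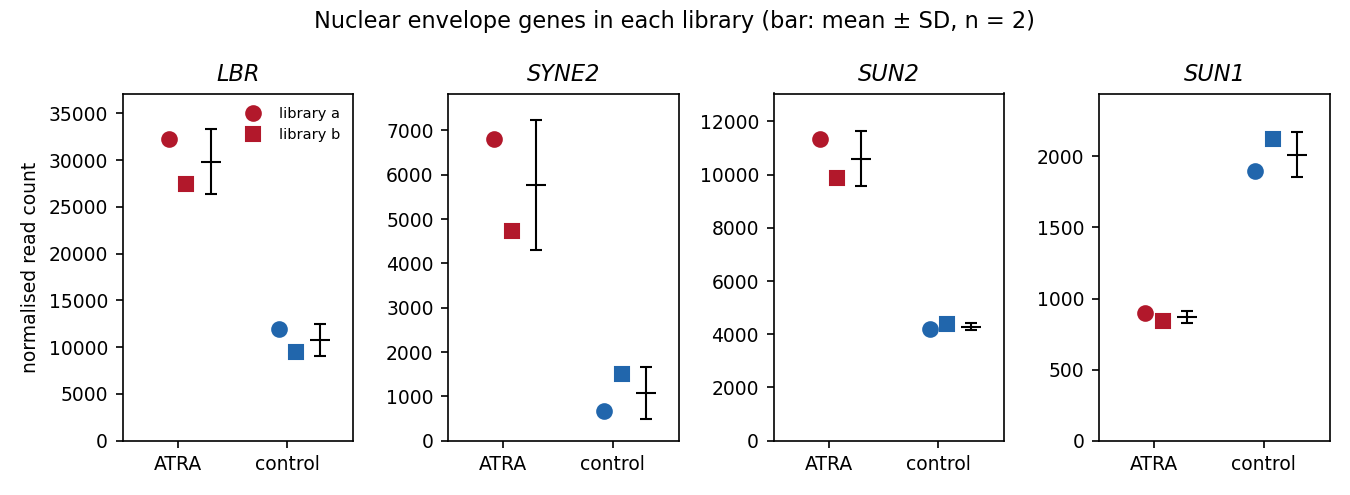
Normalised read counts (vertical axes, from 0) of LBR, SYNE2, SUN2 and SUN1 in the ATRA-treated and control libraries; circles are library a, squares library b, and black bars the mean ± SD (n = 2). LBR, SYNE2 and SUN2 sat higher in both ATRA-treated libraries and SUN1 lower, and the 2 control libraries of SYNE2, at 663 and 1496, stood furthest apart relative to their level.

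None of the 4 genes overlapped between the groups, but the same held for 100% of the listed genes. For each of the 4 genes an exact two-sided permutation test over the samples gave p = 0.333 (n = 2 each), the smallest value that 2 samples against 2 can give. Any gene without overlap gets this value, whatever its spread. In bulk RNA, a change in the number of cells that express a gene and a change of RNA per cell cannot be told apart. Counting error alone gave a coefficient of variation between 0.531% for LBR in its deepest library and 3.83% for SYNE2 in control library a. For SUN1 in ATRA-treated cells, with up to 3.44%, it was close in size to the spread between libraries. The distance between the ATRA-treated libraries was 0.24 for LBR, 0.53 for SYNE2, 0.20 for SUN2 and 0.10 for SUN1 on the log2 scale, beside a median of 0.23 over the listed genes. Between the control libraries the distances were 0.33, 1.17, 0.07 and 0.16 in the same order, beside a median of 0.31.

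Sizes, though not directions, depended on the scaling. Under the median of ratios over the listed genes, which moved the median log2 fold change of those genes by -1.15, log2 fold changes were 0.32 for LBR, 1.28 for SYNE2, 0.15 for SUN2 and -2.36 for SUN1. Against the other changed genes the sizes were moderate. SYNE2 changed more than 64.2% of the 998 genes that rose and had reads in both groups, LBR more than 33.5% and SUN2 more than 25.1%. SUN1 changed more than 29.3% of the 628 genes that fell and had reads in both groups. Genes that rose had a median log2 fold change of 1.83, and genes that fell one of -1.47.

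The promoter windows of the 3 genes that rose are shown because these genes moved in the same direction, and they differ in base composition. Sequences came from the RefSeq promoter table (GRCh38.p14), which holds 3 of the 4 genes, and were located by exact match in GRCh37 at chr1:225616514-225616773 (minus strand), chr14:64319472-64319731 (plus strand) and chr22:39151994-39152253 (minus strand). SUN1 has no entry. Each run covers 250 bases before the first start site and 10 after it, 5′ to 3′, and capitals mark matches to the motifs searched.
LBR: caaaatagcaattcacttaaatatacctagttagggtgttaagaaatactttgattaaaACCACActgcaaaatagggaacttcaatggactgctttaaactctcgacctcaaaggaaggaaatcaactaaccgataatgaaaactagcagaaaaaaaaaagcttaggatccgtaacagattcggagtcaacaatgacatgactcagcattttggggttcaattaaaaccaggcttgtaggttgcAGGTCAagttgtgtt
SYNE2: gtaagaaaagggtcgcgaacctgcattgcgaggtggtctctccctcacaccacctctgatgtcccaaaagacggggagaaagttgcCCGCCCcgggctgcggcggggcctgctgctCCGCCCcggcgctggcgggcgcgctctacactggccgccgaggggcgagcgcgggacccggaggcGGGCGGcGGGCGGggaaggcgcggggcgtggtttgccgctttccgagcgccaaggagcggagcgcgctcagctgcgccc
SUN2: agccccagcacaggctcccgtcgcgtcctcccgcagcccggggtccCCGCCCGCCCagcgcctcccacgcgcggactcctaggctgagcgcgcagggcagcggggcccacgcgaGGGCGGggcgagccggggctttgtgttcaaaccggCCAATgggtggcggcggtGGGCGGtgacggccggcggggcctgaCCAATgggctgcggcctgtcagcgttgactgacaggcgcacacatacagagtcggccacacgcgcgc

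Motifs were searched on both strands of the 300 bases from 250 before to 50 after each start. A half-site of the element that retinoic acid receptors bind was searched as AGGTCA, and other spellings of it were not searched. For myeloid factors, a core of PU.1 sites was searched as GAGGAA and the motif of RUNX proteins as TGTGGT. The motif of the GATA family was searched as AGATAA. Of general promoter elements, the GC box was searched as GGGCGG and the site of NF-Y as CCAAT. The LBR window held 1 AGGTCA, beginning 5 bases before the start, and 13.8% of 34796 promoters hold this motif. It also held 1 TGTGGT on the opposite strand, present in 13.1% of promoters. The SYNE2 window held 4 GC boxes and the SUN2 window 5, of which 1 pair overlaps, and GGGCGG occurs in 44.9% of promoters. SUN2 had 2 CCAAT motifs in addition, a motif of 34.6% of promoters. GAGGAA (27.9% of promoters) and AGATAA (10.4%) were found in none of these 3 windows of first starts, nor was AGGTCA repeated after 1, 2 or 5 bases, a spacing present in at most 0.0172% of promoters. GC content was 38.3% for LBR, 71.7% for SYNE2 and 77.0% for SUN2, against a median of 58.7% over all promoters. A match is a description of the letters and not evidence of binding.

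SYNE2 has 3 start sites in the promoter table, the later ones 361 and 363 kb downstream of the first, and SUN2 has 3 within 1.03 kb. The first starts, at 64319722 for SYNE2 and 39152003 for SUN2, lie inside the annotated genes. Windows at the 5′ ends of these annotated genes were not searched. The window of the second SYNE2 start held 2 AGATAA motifs, 1 TGTGGT and 1 CCAAT, and that of the third held 1 GC box. The later SUN2 windows held 1 GAGGAA each, with 4 GC boxes at the second start and 2 at the third. Read counts per gene pool the transcripts of all starts, so which of them contributed was not measured. The canonical transcripts of LBR, SYNE2 and SUN1 share 0 bases with exons of other protein-coding genes, whereas 458 of 3960 bases of SUN2 lie in exons of GTPBP1 on the opposite strand. Whether reads were assigned by strand is not given in the sources used here, so reads in those bases could come from either gene.

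The paralogs SUN1 and SUN2 can be compared within a library, where the size factor cancels. There were 12.6 and 11.7 SUN2 reads per SUN1 read in the ATRA-treated libraries, against 2.21 and 2.06 in the control libraries. The ratio was 5.71-fold higher upon ATRA induction, with library pairs between 5.32 and 6.12, and libraries of a group differed far less than the groups did. SUN1 contributed 7.33% and 7.86% of the reads of both genes with ATRA, against 31.2% and 32.6% in controls. The summed normalised count of both SUN genes was 11472 ± 1091 with ATRA and 6299 ± 296 in controls (SD, n = 2 each), 1.82-fold higher. Unlike the ratio, this sum depended on the scaling, and its log2 fold change turned to -0.29 under the median of ratios over the listed genes.

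Of 7 gene pairs compared in this way, 5 had ratios that did not overlap between the groups. Pairs of SUN1 with a gene that rose could not overlap, since neither gene did and they moved in opposite directions. The share without overlap over all pairs of listed genes was not measured, so nothing is read from the count. LBR per SUN1 was 36.0 and 32.6 with ATRA, against 6.29 and 4.49 in controls, a 6.44-fold higher ratio. SYNE2 per SUN1 was 7.58 and 5.62 with ATRA, against 0.349 and 0.704 in controls, 13.2-fold higher. It was 9.27-fold higher without control library a and 18.7-fold higher without control library b. SYNE2 per SUN2 was 0.600 and 0.479 with ATRA, against 0.158 and 0.341 in controls, 2.31-fold higher. The nesprin thus changed more than its anchor in every pair of libraries, by 1.40-fold to 3.79-fold. The SYNE2 to SUN2 ratio was 1.57-fold higher without control library a and 3.39-fold higher without control library b. LBR per SYNE2 was 4.74 and 5.80 with ATRA, against 18.0 and 6.37 in controls, 2.04-fold lower. This ratio rested on the control libraries, since it was 1.22-fold lower without control library a and 3.44-fold lower without control library b.

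LBR per SUN2 did overlap, with 2.85 and 2.78 reads in ATRA-treated libraries, against 2.85 and 2.17 in control libraries. Its change of 1.13-fold, between 0.974 and 1.31 over library pairs, gives no difference between the rises of LBR and SUN2 beyond the spread. For the 5 pairs without overlap the exact two-sided permutation test gave p = 0.333, the smallest possible, and 0.467 after Benjamini-Hochberg adjustment over the 7 pairs. For LBR and SUN2 the same exact test gave p = 1.

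**Figure D2:**
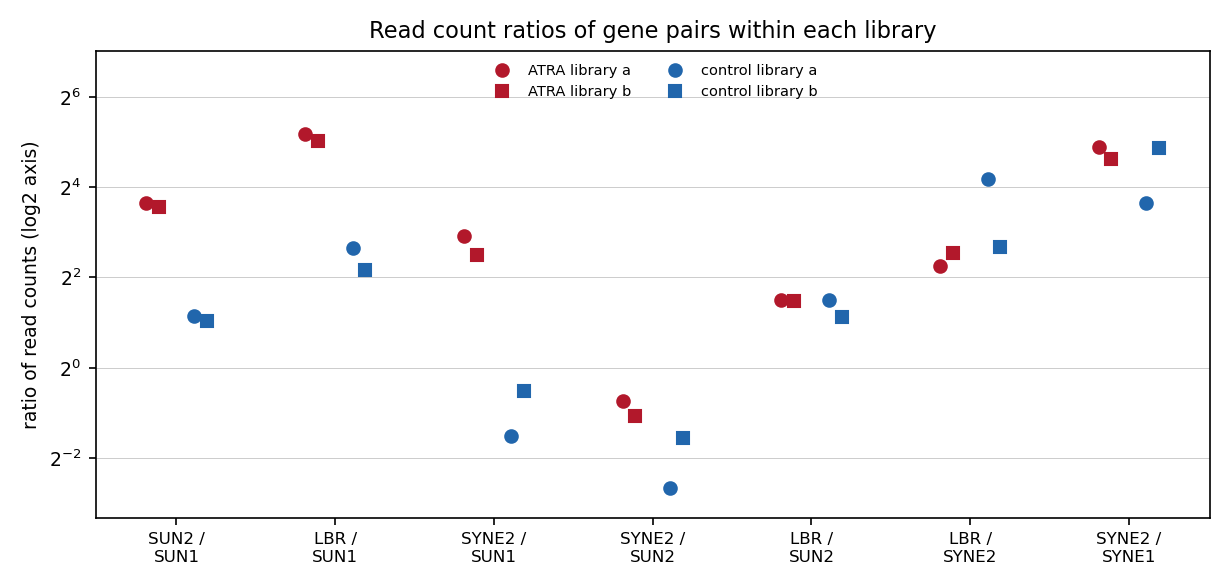
Ratios of read counts of gene pairs within a library (vertical log2 axis), with ATRA-treated libraries in red left of the control libraries in blue; circles are library a, squares library b. The ratio of SUN2 to SUN1 lay at 12.6 and 11.7 with ATRA and at 2.21 and 2.06 in controls, while the ratios of LBR to SUN2 and of SYNE2 to SYNE1 overlapped between the groups.

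Levels of different genes were compared per kb of the canonical transcript, since SYNE2 at 21.8 kb is several times longer than LBR (3.75 kb), SUN1 (4.01 kb) and SUN2 (3.96 kb). On this scale LBR was the highest, with 7962 ± 922 normalised reads per kb in ATRA-treated cells and 2866 ± 456 in controls (SD, n = 2 each). It lay above 98.0% of the 1532 listed genes with a known length in ATRA-treated cells and above 95.8% in controls. SUN2 came next with 2677 ± 265 per kb with ATRA and 1083 ± 34.7 in controls. The order below these depended on the group. SYNE2 had 312 and 217 reads per kb in the ATRA-treated libraries and SUN1 had 224 and 210, so these levels overlapped. In control libraries SYNE2 had 30.4 and 68.6 reads per kb and SUN1 had 474 and 530, so SUN1 was the higher with no overlap. Lengths of other transcripts of SYNE2, and loss of reads far from the poly(A) tail, would change these levels but were not measured.

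**Figure D3:**
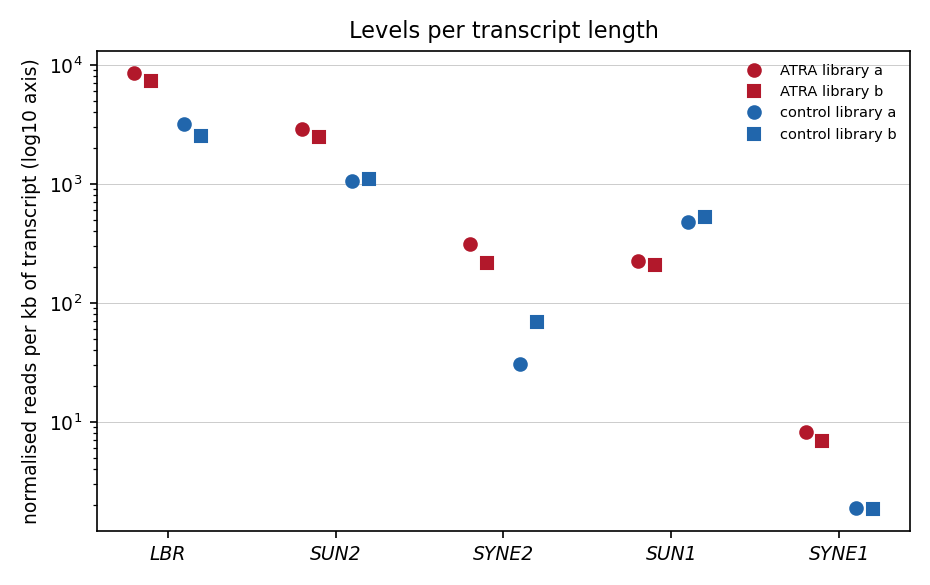
Normalised reads per kb of canonical transcript (vertical log10 axis) of LBR, SUN2, SYNE2, SUN1 and the second nesprin gene SYNE1; ATRA-treated libraries in red are left of control libraries in blue, circles are library a and squares library b. SYNE2 and SUN1 lay close together with ATRA, at 264 and 217 on average, and apart in controls, at 49.5 and 502.

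Other genes of the envelope were read from lists of pathway genes. The share of a list is over all its entries, and how many of them were tested is unknown. It therefore compares only roughly with a share of tested genes. Of 11 LINC complex genes, 4 were listed, namely SUN1, SUN2, SYNE2 and SYNE1, of which 3 rose and 1 fell. Since 3 of these were picked with their direction known, only SYNE1 adds to the count, and nothing is read from the share of 36.4% beside the 13.4% of all tested genes. SYNE1, the gene of nesprin-1 (chromosome 6, 152442822 to 152958936), had 228 and 192 normalised reads with ATRA, against 52.5 and 51.4 in controls. It rose 4.05-fold, a log2 fold change of 2.02, with means of 210 ± 25.4 and 52.0 ± 0.784 (SD, n = 2 each). Reads of SYNE2 per read of SYNE1 were 29.8 and 24.6 with ATRA, against 12.6 and 29.1 in controls, and overlapped. Per kb SYNE1 was the lowest of these genes, with 7.59 ± 0.916 in ATRA-treated cells and 1.88 ± 0.0283 in controls. A gene that is not listed, such as SYNE3, was either not tested or above the limit, and the table gives no value for it.

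Of 27 genes of the lamina and inner nuclear membrane, 3 were listed or 11.1%, beside the 13.4% of all tested genes. Since LBR among them was picked with its direction known, nothing is read from this share. Besides LBR, TOR1AIP1 rose and TMEM201 fell. TOR1AIP1, which encodes the lamin-binding activator of torsin ATPases LAP1, had 5758 and 6228 normalised reads with ATRA, against 2802 and 3255 in controls, a log2 fold change of 0.98. This direction turned under scaling by the median of ratios over the listed genes, where the value was -0.16. TMEM201 encodes a protein of the inner membrane associated with LINC complexes and had 634 and 598 normalised reads with ATRA, against 1663 and 1291 in controls, a log2 fold change of -1.26. The lamin genes LMNA, LMNB1 and LMNB2 were not listed. Over the 3 genes, with LBR included, the median log2 fold change was 0.98, beside 1.22 over the listed genes with reads in both groups.

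Of 31 nuclear pore genes only NUP160, a scaffold subunit of the pore, was listed, or 3.23% beside the 13.4% of all tested genes. It had 3368 and 4111 normalised reads with ATRA, against 7662 and 7184 in controls, a log2 fold change of -0.99. Of 21 genes of sterol synthesis, the other activity of LBR, 0 were listed, beside the same 13.4%. Of 24 spectrin repeat and cytoskeletal linker genes 4 were listed or 16.7%, near the 13.4% of all tested genes, of which 1 rose and 3 fell. VIM, the intermediate filament vimentin, had 467 and 183 normalised reads with ATRA, against 3369 and 3568 in controls, a log2 fold change of -3.42. Leaving out ATRA library a made it -4.25. The linker gene DST fell 2.81-fold to 1113 ± 14.6 with ATRA, against 3129 ± 153 in controls (SD, n = 2 each).

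**Figure D4:**
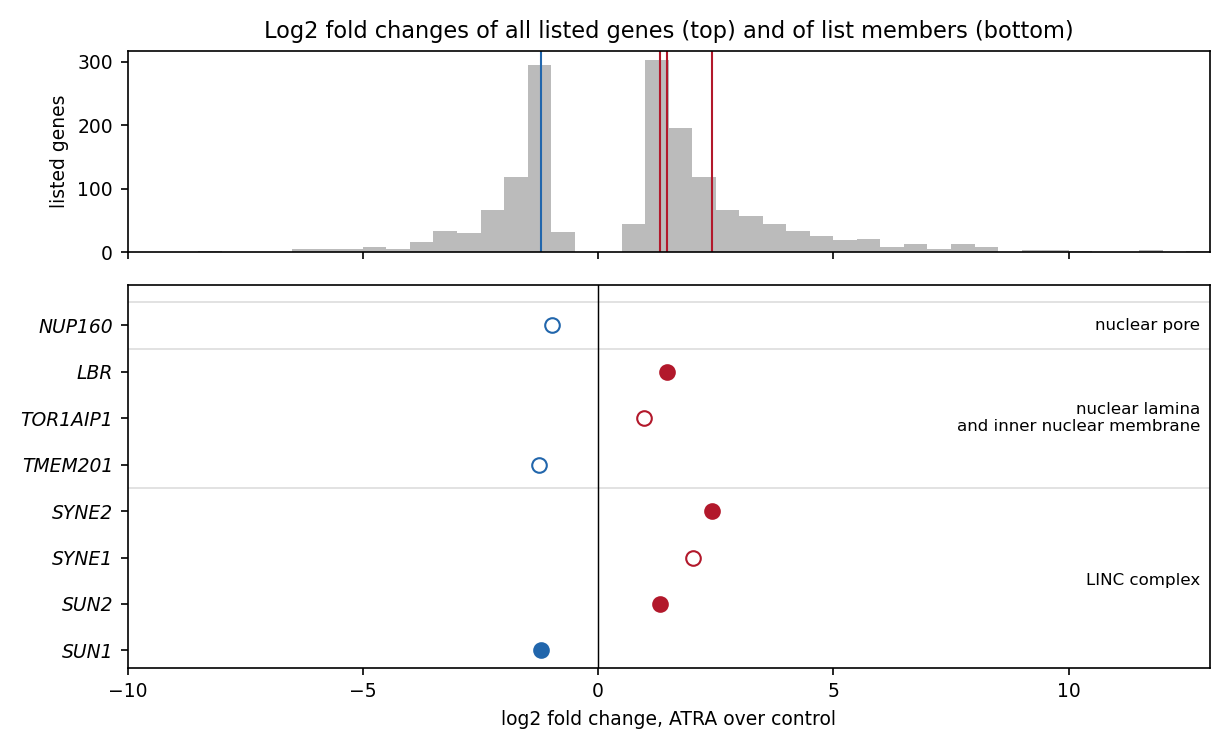
Top, the number of listed genes by log2 fold change (ATRA over control), with vertical lines at LBR, SYNE2 and SUN2 (red) and SUN1 (blue); bottom, the listed members of 3 gene lists by log2 fold change, filled for the 4 genes described here. SYNE1 and SYNE2 stood at 2.02 and 2.42, and SUN2 and SUN1 on opposite sides of 0 at 1.31 and -1.21.

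Genes whose pattern over the 4 libraries was most like each of the 4 genes were ranked by the distance of their centered log2 values. Among the nearest to LBR were TNFRSF1B at 0.06 and PRKAR1A at 0.07, which encode a receptor for tumor necrosis factor and a regulatory subunit of protein kinase A. Nearest to SUN2 were LIMD2, ALAS1 and DUSP22, each at 0.06, and ALAS1 begins heme synthesis. Nearest to SUN1 were PAPD5 at 0.06, FAM95C at 0.07 and TRIT1 at 0.08. No gene was as close to SYNE2, where BCL6, a transcription repressor, stood at 0.19, MOB3C at 0.19 and C9orf66 at 0.29. Among the 4 genes themselves LBR and SUN2 were nearest, at 0.33, and SYNE2 and SUN1 furthest apart. With 4 libraries such distances mostly rank the size of the change.

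The surroundings of the 4 genes were examined because the study concerned chromatin domains. Within 500 kb of LBR 2 of 8 protein-coding genes were listed. Counts around all 4 genes stand beside the 13.4% of all tested genes, though how many neighbours were tested is unknown. ENAH, an actin regulator 57.8 kb from LBR, had 291 and 318 normalised reads with ATRA, against 859 and 840 in controls, and fell. TMEM63A at 417 kb rose to 3375 ± 276 with ATRA, against 877 ± 79.4 in controls (SD, n = 2 each). Around SYNE2 1 of 13 was listed, the folate enzyme gene MTHFD1 with a log2 fold change of -1.17. Around SUN2 1 of 25 was listed, the kinase gene CSNK1E with -1.02, and around SUN1 0 of 12. These neighbours were chosen after their values were seen.

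Markers of maturation and of other cell types were read from lists as well. Among all tested genes 8.28% rose and 5.13% fell, the shares that stand beside the counts below. The lists were chosen with earlier results of these data known, so the counts are a description. Of 6 granulocytic maturation markers 5 rose, with summed normalised counts between 63023 and 64408 with ATRA, against 1770 and 1846 in controls. Of 6 promyelocyte and 4 erythroid markers 0 were listed, so that the identity of the line could not be checked on them. Of 6 monocyte and macrophage markers 3 rose, with sums between 1427 and 1760 with ATRA, against 49.2 and 72.9 in controls. Of 4 lymphoid markers CD3E rose and NKG7 fell, with sums between 213 and 235 with ATRA, against 229 and 287 in controls. Of 6 eosinophil, basophil and mast cell markers 3 fell and PRG2 stood above the limit. Their sums, mostly PRG2, ran between 10773 and 38229 with ATRA, against 93814 and 215034 in controls. CD38 had 0 reads in control library b and CPA3 had 0 in ATRA library b. The part of any of these cells in the values of LBR, SYNE2, SUN1 and SUN2 was not tested. The listed genes held between 3288055 and 5576516 reads per library.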

How the data were processed

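Polyadenylated RNA was sequenced from 2 ATRA-treated and 2 control HL-60 samples. Per the methods and the submitters' processing notes, adapters were removed by the authors, ribosomal reads filtered with Bowtie, the remainder quantified with RSEM 1.2.7 on hg19 (GRCh37) and groups tested with DESeq2 1.4.5. For RNA the notes also list cutadapt, with no role. Strand handling is not given in the sources used here.

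The deposited table held 3 mean columns, a signal made by the authors from read counts divided by size factors. Further columns held the authors' comparison as a fold ratio, its log2, a p-value and an adjusted p. No result uses their values, except that the p-values gave the limit of 0.01 and the 12265 genes tested. All 1645 rows under it followed from Benjamini-Hochberg ranks within a relative 1e-03.

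None of the 73360 digits of the means was 0 and 20.2% were 1, so each 0 was taken to have been written as 1. Each group mean averages 2 whole counts over size factors. Step sizes from means under 15 accounted for 30 of 30 distinct ATRA and 81 of 81 control means and gave size factors of 1.10 and 1.00 for ATRA libraries a and b, and 1.03 and 0.895 for control libraries a and b. Exactly 1 pair of counts per group was found for all 1648 genes, and these gave back the mean over all libraries in 1648. The libraries are not tied to the replicate numbers of the labels. A count model was not fitted, since listed genes were selected for small spread and large change.

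Gene positions and transcript lengths came from GENCODE v44 on GRCh37, where 1538 of 1648 symbols matched. Named genes were the 4 members, all listed genes of the pathway and marker lists, and for each member the 3 genes nearest in log2(normalised count + 1) pattern, of which 3 genes are not reported here. The members and lists were chosen with earlier results of these data known. Tests were exact permutations over samples. Python 3.11.15, NumPy 2.4.6, SciPy 1.17.1 and pandas 2.3.3 were used. Alternatives were the printed means, other scalings, a pseudocount of 1, mean log2 values, each library left out, and list counts at an absolute log2 fold change over 1.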

Additional observations from a re-analysis of the deposited data

How the results depend on the processing

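LBR, SYNE2, SUN1, SUN2 and the ratio of SUN2 to SUN1 kept their direction in all 42 alternatives. Of these, 34 moved the value by less than 1 SD, the root of the summed log2 variances of the 2 groups. Alternatives that left out 1 library, added a pseudocount or averaged log2 values were bound to keep the direction, since the groups did not overlap. Their moves were also set against an SD from the same 4 libraries, so they add little to these counts. The 2 other scalings could have turned a gene's direction, and the median of ratios moved all 4 genes by more than 1 SD. Scaling by library totals over the listed genes, which shifted the median log2 fold change of these genes by -0.44, gave 1.03 for LBR, -1.65 for SUN1 and 0.86 for SUN2. Scaling by the median of ratios over the listed genes, which shifted it by -1.15, gave 0.32, 1.28, -2.36 and 0.15 for LBR, SYNE2, SUN1 and SUN2. Both treat a set of mostly higher genes as unchanged by construction. With the means as printed the change of the SUN2 to SUN1 ratio was 2.72 on the log2 scale, against 2.51, because the digits were not restored. With 1 library left out, log2 fold changes ranged from 1.32 to 1.65 for LBR, 1.95 to 3.12 for SYNE2, -1.29 to -1.13 for SUN1 and 1.20 to 1.40 for SUN2, and the ratio from 2.46 to 2.57. At an absolute log2 fold change over 1, the lamina list kept 1 of 2 higher genes and the pore list 0 of 1 lower gene. The sum of SUN1 and SUN2, for which scalings were added after seeing the data, had a log2 fold change of 0.42 with library totals and -0.29 with the median of ratios, against 0.86. Ratios of the other pairs, with libraries left out after seeing the data, moved by over 1.5 times for LBR to SYNE2 (1.22-fold to 3.44-fold lower) and SYNE2 to SYNE1 (0.930-fold to 2.14-fold). SYNE2 to SUN2 moved by up to 1.47 times and SYNE2 to SUN1 by up to 1.42 times. No paired analysis was possible because the recovered libraries carry no replicate number. With 2 samples a group, no permutation p could pass 0.05.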
